A study of Zea mays subsp. mays with 8 samples.

Results

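The subject is the comparison of root with shoot in the start-site sets named Mo17, one of the contrasts between tissues that the design of this maize study names. Clusters were taken by the set name they carry in the deposited list, where the prefix Mo17_R marks root and Mo17_S marks shoot. The root set held 18358 clusters and the shoot set 22875, together 41233 of the 75681 clusters in all 4 sets. Root and shoot clusters of the same strand that shared at least 1 bp were joined, and 15405 pairs in which each cluster met exactly 1 partner were kept for comparison.

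The sets name a line that the samples do not. Sample labels and design text give the inbred lines B73 and A632, while the deposited clusters are named B73 and Mo17. The published account of the study, known from general knowledge and not consulted here, names B73 and Mo17. The data used here cannot settle which line the second pair of sets comes from, so it is called Mo17-named throughout. The labels describe 2 libraries of A632 root, 2 of A632 shoot, 2 of B73 root and 2 of B73 shoot, all of wild-type genotype and untreated. Seedlings were 2 weeks old at harvest (14 days), grown at 27 °C in 16 h of light and at 21 °C in 8 h of dark, and each library pooled tissue of 5 seedlings. Every library except those of B73 root had 14 cycles of PCR, against 16 cycles in B73 root, so root and shoot of A632 were amplified alike per the labels. Each set holds 1 pooled value per cluster and no value per library. No difference below therefore has a replicate check, and intervals cover counting error alone, treating tags and clusters as independent.

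The assay was CAGE, cap analysis of gene expression, in which the cap at the 5′ end of RNA polymerase II transcripts is pulled down and the adjoining bases are read as a tag. Start sites lie in the core promoter, where the polymerase and its general factors assemble. Initiation can be sharp, with most transcripts starting at a few adjacent bases, or broad, with starts spread over many bases. In plants as in animals, sharp initiation is associated with TATA-box promoters and with genes of restricted expression. Roots take up water and minerals while shoots carry out photosynthesis, so the organs of a seedling express partly different genes. The files name no gene, so the labelled tissues could not be checked against marker genes. Regions are given by the files' own coordinates, and the sources used here do not name the genome build.

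The values compared are the authors' normalized signal, the tags behind it and the shape of each cluster. Deposited values at dominant sites, the strongest position of each cluster, follow a power law of whole tag numbers. The law set 1 tag at 0.138 for root and at 0.243 for shoot, and the exponent was 1.01 in root and 0.877 in shoot. Root signal was thus nearly proportional to tags, while shoot signal grew more slowly than tags. Inverting the law gave 2797561 dominant-site tags in root and 3409185 in shoot, with whole numbers in 100% of clusters of each set. Summed signal was 618722 in root and 602151 in shoot, and the median cluster had 29 dominant-site tags in either tissue.

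The strongest start region was the same in both tissues, and it weighed far more in root. On the plus strand of chromosome 4 it spanned 1079051 to 1079189 in root and 1079051 to 1079184 in shoot, with the dominant site at 1079094 in both. Its signal was 118886 in root, 19.2% of that set, against 14627 in shoot, 2.43% of that set. It held 509249 dominant-site tags in root and 175051 in shoot. The second in each set was the minus-strand site at 18759495 on chromosome 2, a start of 1 bp width in both tissues. Signal there was 18470.4 in root against 7341 in shoot. It held 111285 of the 2797561 dominant-site tags in root and 119039 of the 3409185 in shoot. The tag number was thus larger in shoot, but its part of the set was larger in root.

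After these, the tissues parted. The next 3 clusters of root had dominant sites at 152459619 on chromosome 4 (minus strand), 222643883 on chromosome 1 (plus) and 34240659 on chromosome 10 (plus). The signal of the chromosome 4 site was 9184 in root and 819.0 in shoot. The chromosome 1 site had 5022 in root and 885.6 in shoot. All 3 of these root sites were sharp, with widths of 1 to 4 bp, and had the same dominant base in shoot. The next 3 of shoot all lay on plus strands. The site at 85425497 on chromosome 5 had a root signal of 8.16 and a shoot signal of 4149. Values were 4.05 in root and 3304 in shoot at 192096961 on chromosome 3, and 30.1 in root and 2701 in shoot at 178133123 on chromosome 5. These shoot sites thus had a far lower signal in root, at most 30.1 where the median root cluster had 6.89. In contrast, each of these root sites had a signal above 800 in shoot. Of all signal, the 10 strongest clusters held 27.9% in root and 7.30% in shoot. By recovered tags they took 28.7% in root and 14.4% in shoot.

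Most root start regions were listed in shoot as well, and fewer of the shoot regions were listed in root. Of the root clusters, 16022 (87.3%, 95% Wilson interval 86.8 to 87.7) had a shoot partner, and of the shoot clusters, 16625 (72.7%, 72.1 to 73.3) had a root partner. Leaving out clusters in dense runs, described at the end, the shares were closer, at 88.2% in root and 82.7% in shoot. Some clusters met several partners, with 284 root clusters overlapping at least 2 shoot clusters and 143 shoot clusters overlapping at least 2 root clusters. The largest such case was a root cluster that spanned 21 shoot clusters. Partner shares were high among the weakest clusters, low in the middle and high again among the strongest. Below a signal of 1, 98.1% of 1166 root clusters and 97.6% of 246 shoot clusters had a partner. From 2 to below 5 the share was 73.6% of 4993 root clusters and 57.0% of 6695 shoot clusters. At 100 or more it was 97.0% of 757 root clusters and 91.4% of 852 shoot clusters. Clusters below a signal of 1 were thus seldom listed without a counterpart, and absence from a list does not show that a site was silent. Exactly 1 bp was shared by 1246 of the 15405 pairs. A cluster of 1 position cannot share more, so 1 bp can also be the whole of a cluster. Within 10 bp of a cluster of the other tissue, but not touching it, lay 112 of the 2336 unpartnered root clusters and 344 of the 6250 unpartnered shoot clusters.

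**Figure D1:**
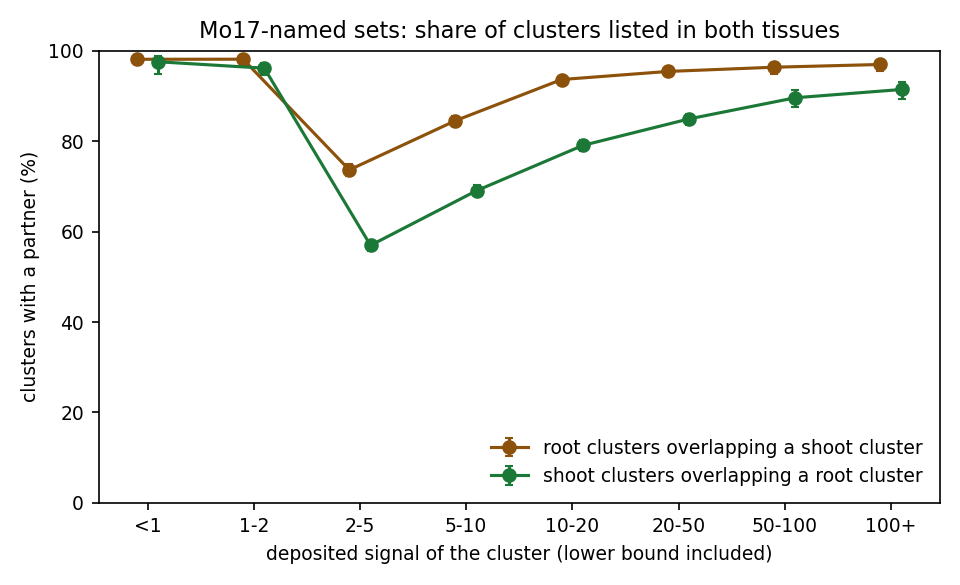
Share of clusters with a partner in the other tissue (y axis, percent) by deposited signal of the cluster (x axis), for the Mo17-named root set and shoot set, with 95% Wilson intervals. Root lies above shoot in every step from a signal of 2 upward, with 73.6% against 57.0% at 2 to below 5.

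Signal at shared regions differed between root and shoot in both directions. Pairs counted as called when the difference reached 4-fold on log2(signal + 1) and the higher signal was at least 1, a fixed size that stands in for a test. By this rule 762 pairs (4.95% of all pairs) were higher in root and 1663 (10.8%) were higher in shoot, which left 12980 within 4-fold. Pairs higher in root had a median signal of 38.9 in root and 3.84 in shoot. Pairs higher in shoot had a median signal of 1.54 in root and 33.2 in shoot. Extreme differences were few and lay mostly on the shoot side of this scale. Of all 15405 pairs, 12 were at least 64-fold higher in root and 136 at least 64-fold higher in shoot. They were counted on the deposited signal alone and not on tags. Across chromosomes, the share of pairs higher in root ranged between 4.26% on chromosome 8 and 6.70% on chromosome 10. The share higher in shoot ranged between 8.52% on chromosome 9 and 13.8% on chromosome 10.

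How the calls split between the tissues depended on the scale. On the deposited signal, 68.6% of called pairs (66.7 to 70.4) were higher in shoot. Recovered tags, scaled per 1000000 of the set, put 1422 pairs (9.23%) on the root side and 1338 (8.69%) on the shoot side. On them, 48.5% of calls were higher in shoot. These tags are of the dominant site alone, whereas the signal is of the whole cluster. Over all pairs, the dominant site held a median of 57.7% of the signal in root and 54.2% in shoot. The part of this in the shift was not tested. Over all pairs the median log2 difference, root minus shoot, was -0.04 on the signal and 0.42 on tags. Relative to that median, the signal gave 800 pairs (5.19%) with root higher and 1618 (10.5%) with shoot higher. Tags gave 891 (5.78%) with root higher and 1732 (11.2%) with shoot higher, again relative to the median. The excess on the shoot side was thus present on both scales after centring. Without centring, no such excess was seen among the 8164 pairs where neither tissue fell below a signal of 5. Of these, 327 (4.01%) had root higher and 312 (3.82%) had shoot higher, and no centred counts were made for them. A shoot-higher pair had a root signal below 1 in 636 of 1663 cases (38.2%), and a root-higher pair had a shoot signal below 1 in 101 of 762 (13.3%). Called on both scales were 746 pairs (4.84%) with root higher and 1287 (8.35%) with shoot higher.

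**Figure D2:**
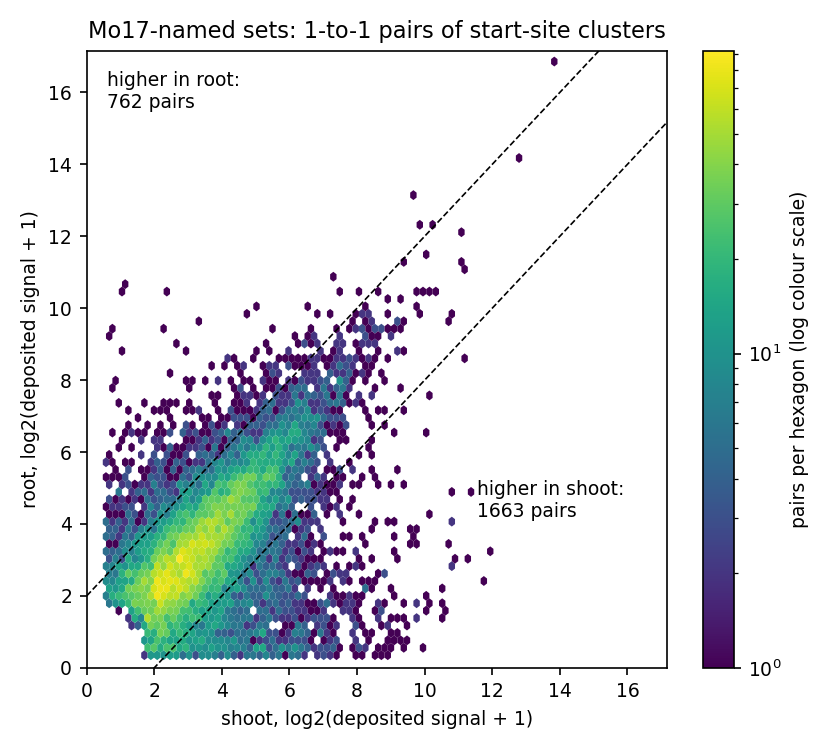
Root signal (y axis) against shoot signal (x axis), both as log2(deposited signal + 1), for the 15405 pairs, with colour for the number of pairs per hexagon and dashed lines at 4-fold. The main cloud is steeper than the diagonal, and 1663 pairs form a wide field at low root signal, against 762 above the upper line.

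The main cloud of pairs was tilted, so strong pairs leaned to root. Among pairs whose geometric mean signal was below 5, the median log2 difference, root minus shoot, was -0.25 on the signal and 0.32 on tags. At a mean of 100 or more it was 0.63 on the signal and 0.64 on tags. The shift with level was smaller on tags but remained. The exponents of the normalization differ between the sets, and their part in it was not tested.

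The 10 pairs with the largest excess in root were all sharp in root. The first lay on the minus strand of chromosome 1, in a root cluster of 74272141 to 74272240 with its dominant site at 74272236. Signal was 1713 in root against 1.08 in shoot (log2 difference 9.69). The dominant sites of the tissues, 3 bp apart, held 7586 tags in root and 3 in shoot, which for the set totals is a ratio of 3081.5 (95% exact binomial interval 1054 to 14946). The same region of B73 had signals of 158.3 in root and 0.531 in shoot. Next was the minus-strand site at 25439382 on chromosome 2, where 89.4% of the root signal fell on 1 base. It held 8380 tags in root and 4 in shoot, and signals of 1391.5 in root and 1.06 in shoot (log2 difference 9.40). The third, at 240779569 on the plus strand of chromosome 4, held 3389 tags in root and 2 in shoot, with a log2 difference of 8.79. It was the single one of these 3 with a lower signal in Mo17-named root, at 744.9, than in B73 root, at 1244.

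The other root-higher pairs among the leading 10 had log2 differences of 6.49 to 8.44 on the signal and 7.35 to 9.67 on tags. They were 117425501 (plus strand) on chromosome 9, 130544761 (plus) and 97032480 (minus) on chromosome 3, 156745031 (plus) on chromosome 6, 168906626 (minus) on chromosome 7, 139149942 (plus) on chromosome 10 and 38270606 (minus) on chromosome 4. All 10 had a width of at most 9 bp in root and dominant sites no more than 3 bp apart, at the same base in 7. B73 root listed a cluster at all 10, with signals of 17.5 to 1244. B73 shoot listed one at 5 of them, with signals of 0.531 to 6.91, and in those 5 the root value was the higher one.

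In the opposite direction, the largest excess in shoot lay on the minus strand of chromosome 6, in a shoot cluster of 1341252 to 1341391. Signal was 0.415 in root against 929.5 in shoot (log2 difference -9.36). The root dominant site at 1341281 had 2 tags and the shoot dominant site at 1341316 had 6967, 2859 times as many for the set totals (791.03 to 23609). In B73 the signal there was 0.575 in root and 893.3 in shoot. The plus-strand site at 192096961 on chromosome 3, among the strongest in shoot, came next with 11 tags in root and 26455 in shoot, a ratio of 1974 (1103 to 3954). The third was a broad region on the minus strand of chromosome 2, of 56737633 to 56737828 in shoot, with a width of 72 bp there. Signals there were 1.66 in root and 1502 in shoot, with 2 tags in root and 5503 in shoot at the dominant sites.

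The other leading shoot-higher pairs had log2 differences between -8.94 and -8.54 on the signal and between -10.24 and -8.94 on tags. They had shoot dominant sites at 208123148 and 85425497 on the plus strand of chromosome 5, 4801092 (minus) on chromosome 7, 215555223 (minus) and 147440192 (minus) on chromosome 3. The last were 70314225 (minus) on chromosome 8 and 6262275 (minus) on chromosome 6. Of the 10, 7 were sharp in shoot, with widths over all 10 of 3 to 72 bp, and 5 had the same dominant base in both tissues. B73 shoot listed all 10, with signals of 55.4 to 2107, and B73 root listed 8, with signals of 0.550 to 25.0. Shoot was the higher tissue of B73 in all 8 that both of its sets listed. These pairs were ranked by their difference, so the sizes and intervals describe extremes.

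**Figure D3:**
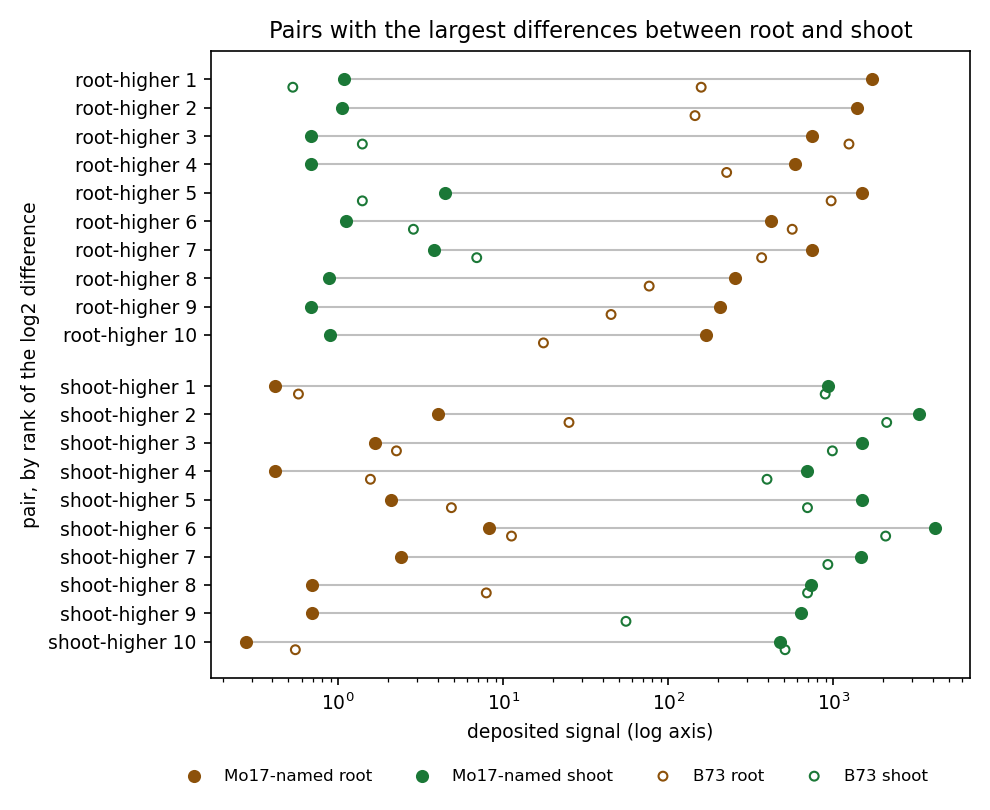
Deposited signal (x axis, log scale) of the 10 pairs with the largest excess in root (upper block) and in shoot (lower block), with filled points for Mo17-named root and shoot and open points for B73. The B73 values lie on the same side in each of the 13 pairs listed in both B73 tissues.

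Across all matched regions, the calls were set beside those of B73. Of the Mo17-named pairs, 9733 could be matched to a B73 pair in both tissues. Of 907 matched pairs called higher in shoot, 722 (79.6%) were also called higher in shoot in B73 on the deposited signal, and 2 were called higher in root. Of 493 matched pairs called higher in root, 206 (41.8%) were called higher in root in B73 and 13 (2.64%) in shoot. Called on both scales in both lines were 201 of 484 root-higher pairs (41.5%) and 472 of 706 shoot-higher pairs (66.9%), where 4.18% of all B73 pairs were root-higher and 8.69% shoot-higher on both scales. On the signal, B73 itself had 532 pairs (4.31%) higher in root and 1916 (15.5%) higher in shoot, with a median log2 difference of -0.50. On tags that order turned round, with 1467 B73 pairs (11.9%) higher in root and 1101 (8.91%) higher in shoot.

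Clusters listed in a single tissue were mostly narrow and weak, with a few strong exceptions. The 2336 root clusters without a partner had a median signal of 4.51 and a median width of 1 bp, and held 4.46% of the root signal. The 6250 shoot clusters without a partner had a median signal of 5.35 and the same median width, and held a larger part of their set's signal. Clusters of 1 position made up 54.0% of them in root and 49.4% in shoot, against 7.36% in root and 10.5% in shoot among clusters with a partner. A cluster of 1 position is joined only if a partner covers its base, so the joining rule itself favours wide clusters. No cluster of 1 position had fewer than 22 tags in root or 18 in shoot. Of the unpartnered root clusters, 31.8% overlapped a B73 root cluster and 17.9% a B73 shoot cluster, against 69.2% and 75.4% of the root clusters with a partner. Of the unpartnered shoot clusters, 11.8% overlapped a B73 root cluster and 58.7% a B73 shoot cluster, against 68.6% and 75.5% of the shoot clusters with a partner. Outside dense runs, described at the end, lay 1975 of the unpartnered root clusters and 3089 of the unpartnered shoot clusters. There, 33.1% of the root clusters overlapped a B73 root cluster, and 49.3% of the shoot clusters a B73 shoot cluster. Of the 360 unpartnered root clusters whose signal reached 10, 70.3% lay on a B73 root cluster and 22.5% on a B73 shoot cluster. Of the 1561 such shoot clusters, 17.0% lay on a B73 root cluster and 89.0% on a B73 shoot cluster.

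Among clusters that root alone listed, the strongest lay at 110499024 to 110499184 on the plus strand of chromosome 1. It had a signal of 2412 and 15843 tags at 110499026, which took 98.0% of its signal. The nearest shoot cluster on that strand was 312792 bp away. The second was the plus-strand site at 10990063 on chromosome 8, with a signal of 1354. Both were listed in B73 root, with signals of 745.6 and 93.6, and neither was listed in B73 shoot. Among clusters that shoot alone listed, the strongest spanned 199643292 to 199643366 on chromosome 5 (plus strand). Its signal was 613.9, and 5604 tags stood at 199643343, where B73 signals were 1.21 in root and 558.4 in shoot. The next 4 had signals of 359.5 to 398.3 and lay at 206793515 on chromosome 5 (plus), 178897556 on chromosome 3 (minus), 160295057 on chromosome 7 (plus) and 1374196 on chromosome 6 (minus).

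A group of near-identical root sites stood on chromosome 9. The next 3 clusters that root alone listed were 117237993, 117402188 and 117205375 on its plus strand, with 3624, 3629 and 3588 tags. Another site of the same kind, 117425501, is the pair named above, with 3611 tags in root and 2 in shoot. All 4 spanned 28 bp, lay within 220126 bp and differed by 1.14% between the highest and the lowest tag number. In B73 root they had 749 to 868 tags. Sites this alike can belong to copies of 1 sequence that share reads, and no source used here tells how the authors placed such reads, so the value of each single site is uncertain. The group was picked out after its values had been seen.

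Root and shoot mostly started transcription at the same base. The dominant site was at an identical position in 10536 of 15405 pairs (68.4%, 67.7 to 69.1). It was 1 to 10 bp away in 13.7% and more than 10 bp away in 17.9% (17.3 to 18.5). Agreement was higher where more tags stood behind both sites. With 5 to 9 tags in the tissue with fewer, 48.1% of 2634 pairs shared the base. With 20 to 49 it was 78.7% of 4118, and with at least 100 it was 90.1% of 1764 (88.7 to 91.4). With at least 1000 tags, 98.5% of 130 pairs shared it (94.6 to 99.6). Among pairs broad in both tissues with at least 100 tags, 82.7% of 597 shared the base and 11.1% had sites more than 10 bp apart. Where sites differed, the root site lay upstream of the shoot site in 2363 of 4869 pairs (48.5%, 47.1 to 49.9), and in 81 of 174 with at least 100 tags. Among pairs higher in shoot that differed, the root site was upstream in 389 of 671 (58.0%, 54.2 to 61.7), and with at least 20 tags in both tissues in 28 of 42. Among pairs higher in root it was upstream in 105 of 207 (50.7%, 44.0 to 57.5), and among pairs within 4-fold in 1869 of 3991 (46.8%, 45.3 to 48.4).

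B73 pairs shared the dominant base less often at like depth, beyond counting error but without a test over libraries. With at least 100 tags in both tissues the share was 90.1% in the Mo17-named pairs and 73.8% (70.9 to 76.5) of 961 B73 pairs. The gap was made up of short distances, since 6.07% of Mo17-named pairs and 23.7% of B73 pairs were 1 to 10 bp apart. Much of it was a step of a single base. Of the pairs that differed, 26 of 174 Mo17-named and 149 of 252 B73 pairs were exactly 1 bp apart. More than 10 bp apart were 3.80% of Mo17-named pairs and 2.50% of B73 pairs. In B73 the root site lay upstream in 65 of 252 pairs that differed (25.8%, 20.8 to 31.5). B73 root had 16 PCR cycles and the other groups 14, and the part of this in the gap was not tested.

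**Figure D4:**
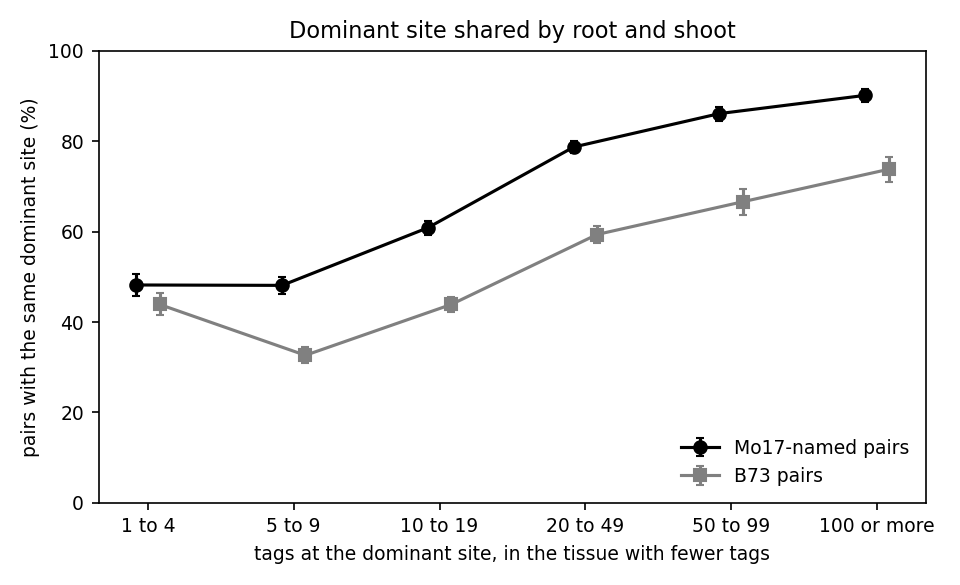
Share of pairs in which root and shoot have the same dominant site (y axis, percent) by tags at the dominant site in the tissue with fewer (x axis), for Mo17-named and B73 pairs, with 95% Wilson intervals. Both shares are higher in each step with tags from 5 upward, to 90.1% in Mo17-named and 73.8% in B73 pairs at 100 or more.

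Well-covered pairs with distant start sites were few. Of the 1764 pairs with 100 or more tags in each tissue, 67 had sites more than 10 bp apart, and the 5 widest distances were 116 to 158 bp. The widest was on the plus strand of chromosome 7, with the dominant site at 160071865 in root (440 tags) and 160072023 in shoot (424 tags). Those sites held 17.2% of the cluster's signal in root and 21.1% in shoot, so neither tissue had a commanding start there. A minus-strand region of the same chromosome had its site at 144967010 in root, with 324 tags, and at 144966883 in shoot, with 123 tags. Its width was 128 bp in root and 2 bp in shoot, and B73 shoot had the site at 144967010, the base used in Mo17-named root. A minus-strand region of chromosome 2 had 111530273 in root (615 tags) against 111530399 in shoot (544 tags). B73 used the same 2 bases there the other way round, 111530399 in root and 111530273 in shoot. The plus-strand region of chromosome 3 with sites at 1711673 in root and 1711797 in shoot had nearly the same pair of bases in B73, 1711675 in root and 1711797 in shoot. In the plus-strand region of chromosome 1 with 215380123 in root and 215380007 in shoot, both B73 sets had 215380123.

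Shape was mostly kept between the tissues, and where it differed the root cluster was more often the narrower one. Clusters count as sharp where the deposited width, from the 10th to the 90th percentile of signal, is at most 10 bp. Of the pairs, 5978 were sharp in both tissues and 7843 broader in both, so 89.7% kept their class. Sharp in root alone were 1062 pairs and sharp in shoot alone 522. The median width over pairs was 15 bp in root and 21 bp in shoot. In pairs with the same dominant site and at least 100 tags, it was 4 bp in root and 6 bp in shoot, and 205 pairs were wider in root against 582 wider in shoot. The extra width lay on both sides of the dominant site. Its mean reach upstream was 8.43 bp in root and 10.6 bp in shoot, and downstream 9.49 bp in root and 11.2 bp in shoot.

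Both size and direction of the contrast depended on the measure of shape. Taking clusters with at least 50% of signal on the dominant site as sharp, 2191 pairs had root alone sharp and 1004 had shoot alone sharp. The files also hold an unnamed shape score, which for clusters of 2 positions could be rebuilt from tag shares within 0.002 in 100% of cases. With a score above -1 as sharp, 908 pairs had root alone sharp and 816 had shoot alone sharp. In well-covered pairs that order was the other way round, with 322 for root and 379 for shoot at 20 or more tags, and 50 for root and 58 for shoot at 100 or more. At 100 or more tags the median score was 0.423 in root and 0.400 in shoot. The dominant site took a median of 71.0% of the signal in root and 65.1% in shoot in those pairs. The shoot exponent of 0.877 lowers strong positions relative to weak ones, and its part in the widths was not tested.

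Over all clusters with a signal of at least 1, the order was the other way round. Sharp were 50.6% of 17192 root clusters (49.9 to 51.4) and 54.7% of 22629 shoot clusters (54.0 to 55.3). Unpartnered clusters, with a median width of 1 bp, enter this count. Leaving out clusters in dense runs, described at the end, 47.5% of root clusters and 43.6% of shoot clusters were sharp, the order seen in pairs. Among clusters with at least 1000 tags, 90.9% of 320 in root and 78.2% of 417 in shoot were sharp. Of all signal, sharp clusters held 73.7% in root and 58.9% in shoot.

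Among the 10 pairs with the largest differences in width, 7 shared their dominant site, against 90.1% of all pairs with at least 100 tags, from which they were drawn. The pair with the largest excess of width in root was on the plus strand of chromosome 3, where the dominant site was 34948697 in both tissues. There the width was 151 bp in root and 3 bp in shoot, with 503 tags in root and 3971 in shoot at that site, which held a slightly smaller part of the signal in root than the 75.5% it held in shoot. B73 had the same contrast, with widths of 151 bp in root and 3 bp in shoot. Further pairs wider in root, by 110 to 130 bp, had root dominant sites at 91615037 on chromosome 3, 144967010 and 18626159 on chromosome 7 and 187074338 on chromosome 5. The largest excess of width in shoot was on the plus strand of chromosome 4, with the dominant site at 212126625 in both. The width was 8 bp in root and 187 bp in shoot, with 82.7% of the signal at that site in root and 67.3% in shoot. Here B73 differed, with a width of 181 bp in both tissues. Next were 154920537 on the minus strand of chromosome 9 (1 bp in root, 155 bp in shoot) and the minus-strand region of chromosome 10 with dominant sites at 144277113 in root and 144277092 in shoot (22 bp in root, 176 bp in shoot). Then came 144754423 on the plus strand of chromosome 4 (1 bp in root, 148 bp in shoot). The last, on the minus strand of chromosome 3, had dominant sites at 171795612 in root and 171795609 in shoot (5 bp in root, 138 bp in shoot).

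Regions higher in root were sharp more often than regions higher in shoot. Of the 762 pairs higher in root, 70.3% (67.0 to 73.5) were sharp in root, with a median width of 5 bp. Of the 1663 pairs higher in shoot, 36.9% (34.6 to 39.2) were sharp in shoot, with a median width of 31 bp. Pairs within 4-fold lay between, with 44.9% sharp in root and 41.3% in shoot. Sharp clusters put more tags on the dominant site, so the classes were also compared at like depth. With 100 to below 1000 tags in the higher tissue, 76.3% of 400 root-higher pairs (71.8 to 80.2) and 41.7% of 713 shoot-higher pairs (38.1 to 45.3) were sharp, at median tags of 243 for root-higher and 211 for shoot-higher pairs. On the tag scale, 62.3% of 1422 root-higher pairs and 41.3% of 1338 shoot-higher pairs were sharp. Median shape scores in the higher tissue were 0.480 for root-higher and -0.294 for shoot-higher pairs, the same order on a score that follows tags. In B73 the shares were 79.5% of 532 root-higher pairs in root and 36.2% of 1916 shoot-higher pairs in shoot. These are intervals over clusters of 1 pooled set per tissue, and no test over libraries could be made.

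**Figure D5:**
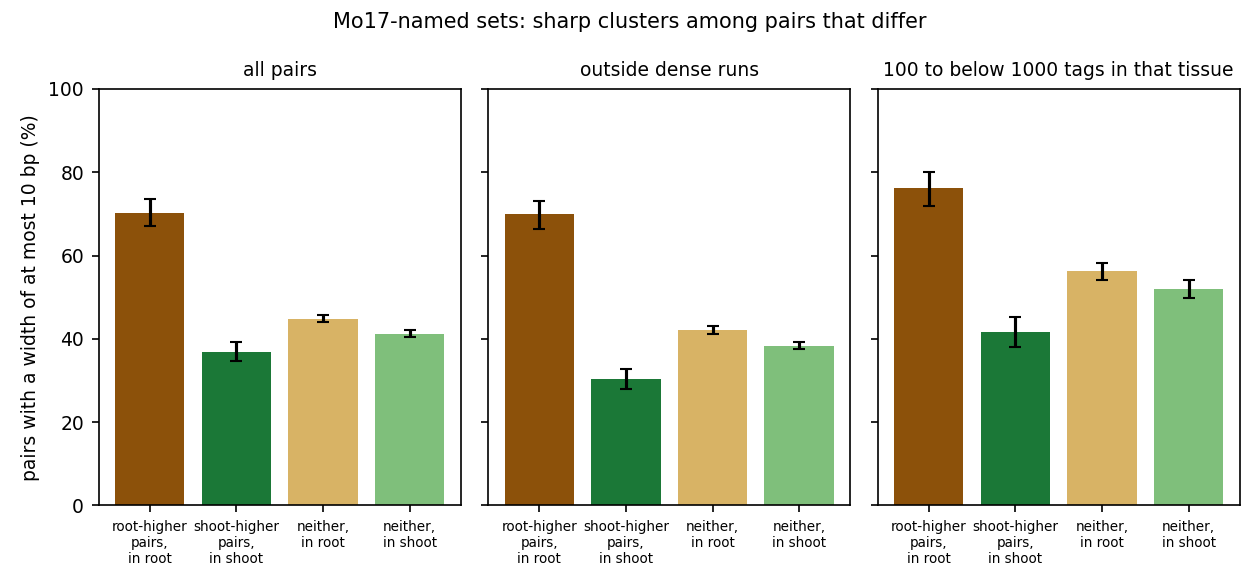
Share of sharp clusters (y axis, percent, width of at most 10 bp) among pairs higher in root (width in root), higher in shoot (width in shoot) and within 4-fold, for all pairs, for pairs outside dense runs and for 100 to below 1000 tags in that tissue. Bars start at 0 and carry 95% Wilson intervals; root-higher pairs stand at 70.3%, 69.9% and 76.3% in the 3 panels, and shoot-higher pairs at 36.9%, 30.4% and 41.7%.

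Few combinations of neighbouring start regions were called in opposite directions. Over all pairs, 4.95% were higher in root and 10.8% were higher in shoot. Among 9980 combinations of pairs on the same strand with shoot dominant sites at most 1000 bp apart, 3 joined a root-higher with a shoot-higher pair. Combinations within dense runs, described at the end, were not counted apart, so this is not a rate among separate start regions. None of the 3 lay in a dense run. All are named here, and they were chosen with their values known. The plus-strand site of chromosome 1 at 276390567 had 289 tags in root and 4 in shoot, and the site 754 bp downstream, at 276391321 in shoot, had 3 in root and 177 in shoot. Their log2 differences were 5.01 and -5.08. Also on that strand, 107193082 had 1572 tags in root and 301 in shoot, and 107193394 had 48 in root and 280 in shoot. In both places the upstream start was the root-higher one, and B73 showed the same directions of signal. In the minus-strand case, on chromosome 7, the root-higher site at 104204493 lay downstream, with 783 tags in root and 35 in shoot. Its neighbour at 104205061 had 1 tag at its root dominant site, against 14 in shoot, and was not called on the tag scale.

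Dense runs, at least 10 clusters of a set with neighbouring dominant sites at most 2000 bp apart, were a larger part of the shoot list. The root list had 51 of them, with 1386 clusters (7.55%), and the shoot list had 108, with 4883 clusters (21.3%), while 37 of the root runs overlapped a shoot run. A run lay on a single strand almost throughout, with a median of 100% of clusters on the main strand in root and 98.6% in shoot. The root run with the most clusters, 234655876 to 234660887 on chromosome 1, held 214 clusters in root and 157 in shoot. Its counterpart for shoot, 165543583 to 165550289 on chromosome 3, held 21 clusters with a summed signal of 43.7 in root, and 273 clusters with 6381 in shoot. Of 960 pairs in runs, 4.27% were called higher in root and 22.1% higher in shoot, against 4.95% and 10.8% of all pairs. Runs were found from the listed clusters, mostly those of shoot, so this contrast is not independent of how runs were picked. Clusters of the same run were counted as separate pairs.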

How the data were processed

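Capped 5′ ends of RNA were read in 8 libraries, and the 4 sets of clusters made from them were used as deposited. Per the submitters' processing notes, the tools included Bowtie2 2.0.4. The sources used here do not give the build of the genome, how clusters were made and filtered or how the 2 libraries of a group were pooled. Cluster and dominant-site values are the authors' normalized signal, deposited without a header, as 1 pooled value per cluster. The deposited shape score is likewise unnamed, and for clusters of 2 positions it equals 2 plus the sum of p log2(p), with p the share of tags at a position. Clusters were assigned by the set prefix of their names, and no column of values was left unmapped.

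From these values, tags at dominant sites were recovered by inverting the power law of each set, with numbers taken as whole within 0.01. Root and shoot clusters were joined by strand and an overlap of at least 1 bp. Signal was compared on the log2(signal + 1) scale, so differences of weak pairs are understated. With 1 pooled set per tissue there was no test, and a fixed 4-fold difference with a higher signal of at least 1 was used. Shares carry 95% Wilson intervals and tag ratios 95% exact Clopper-Pearson intervals over the dominant-site totals of the sets. Both cover counting error only, and no source used here describes molecular identifiers. The calling step was run on simulated data for this comparison, with 22875 clusters and 200 changed 16-fold. All 75 changed clusters above limits set on the shoot signal were recovered, and 0 unchanged clusters were called. The simulated sets shared all positions and differed by small noise (standard deviation 0.2 on natural logs). Pairing errors and false calls at the spread of the real data were therefore not tested.

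Regions named are the 5 strongest clusters of each set, the 10 pairs with the largest difference in each direction and the 5 strongest clusters of each set without a partner. Among pairs with at least 100 tags in both tissues, the 5 with the widest separation of dominant sites and the 5 with the largest difference in width in each direction were added. Alternatives covered the scale, fold, minimum signal or tags, overlap, width and dense runs. The members, lists and rules were chosen with earlier results of these data known. Start-site sequences and gene names were not used here, because no genome of the files' build was at hand. Python 3.11.15, numpy 2.4.6, pandas 2.3.3, scipy 1.17.1, matplotlib 3.10.9 and bedtools 2.31.1 were used.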

Additional observations from a re-analysis of the deposited data

Results flagged for a closer look

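Of 9733 regions matched in both lines, 9 were called on both scales in opposite directions in the Mo17-named and the B73 sets. In each, root and shoot of the Mo17-named sets had the same dominant site. The difference between the lines was not tested, since every set is 1 pooled value. Log2 differences are of root minus shoot.

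In 8 of the 9, root was higher in the Mo17-named sets and shoot was higher in B73. The strongest was the plus-strand site at 11500966 on chromosome 9, with Mo17-named signals of 1047 in root and 86.4 in shoot (log2 difference 3.58). It held 6363 tags in root and 639 in shoot, whereas B73 signals were 39.6 in root and 212.2 in shoot (-2.39). At 147861315 on the minus strand of chromosome 10, Mo17-named signals were 560.9 in root and 70.4 in shoot (2.98), against 14.6 in root and 146.6 in shoot in B73 (-3.24). Tags there were 3656 in root and 611 in shoot. The largest difference in this direction was at 164655804 on the plus strand of chromosome 1, where the log2 difference was 3.96 in the Mo17-named sets and -2.39 in B73, with 1366 Mo17-named tags in root and 61 in shoot.

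The other plus-strand sites had log2 differences of 2.27 (147170827) and 2.59 (291976332) on chromosome 1, 2.05 (142729666) on chromosome 9 and 2.74 (133735790) on chromosome 10. The minus-strand site at 5335067 on chromosome 5 had 2.16. B73 differences at these 5 sites lay between -3.58 and -2.09. All tags behind these Mo17-named calls were at least 71 in root, the higher tissue. The lower sides were less well covered, down to 10 tags in Mo17-named shoot and 2 in B73 root at 147170827.

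The single opposite case was the plus-strand site at 178233329 on chromosome 3. Its Mo17-named signals were 3.08 in root, with 11 tags, and 47.5 in shoot, with 234 tags (-3.57). In B73 they were 239.1 in root and 43.3 in shoot (2.44).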

How the results depend on the processing

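No paired analysis was possible because the deposited columns carry no library or replicate number, and for the same reason no replicate could be left out. Over 15 results and 103 alternative values, 40 stayed close to the main value, 57 moved and 6 changed direction. All 80 alternative values of the 20 pairs named for their difference kept their direction. Those pairs were picked for the largest differences, which a change of scale could hardly turn round, so this is no check of them.

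Shoot took 68.6% of calls on the deposited signal, and the median log2 difference, root minus shoot, was -0.04. On recovered tags, which are of the dominant site alone, these became 48.5% and 0.42, with 1422 root-higher pairs. Where both tissues had a signal of 5 or more, they were 48.8% and 0.12, with 327 root-higher and 312 shoot-higher pairs. Quantile normalization gave 58.3% and 0.17, and totals without the 10 strongest clusters gave 56.5% and 0.25. Tags relative to their median gave 66.0%. A limit of 2-fold called 2559 pairs in root and 3515 in shoot (57.9% in shoot), and 8-fold called 270 in root and 902 in shoot (77.0%).

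An overlap of at least 50% of each cluster gave partners to 76.2% of root and 61.1% of shoot clusters, and left 320 pairs sharp in shoot alone. Clusters with a signal of at least 5 gave partner shares of 75.8% in root and 57.2% in shoot, 8293 pairs and sharp shares of 48.3% in root and 49.1% in shoot. At least 10 gave 70.9% in root and 54.3% in shoot, 4998 pairs, and sharp shares of 47.4% in root and 45.1% in shoot, in the opposite order. Without dense runs, partner shares were 88.2% in root and 82.7% in shoot, sharp shares 47.5% in root and 43.6% in shoot, and distant sites 18.8% of pairs.

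With at least 20 tags, 83.0% of pairs shared the dominant site, 9.59% had distant sites, and 589 pairs had root alone sharp and 268 had shoot alone sharp. With at least 100 tags the values were 90.1%, 3.80%, 126 in root and 44 in shoot. Counting sites within 1 bp as the same gave 71.5%. A limit of 5 bp for sharp gave 40.7% in root and 45.5% in shoot, and 20 bp gave 57.4% in root and 60.8% in shoot. With at least 50% of signal on the dominant site as sharp, 2191 pairs had root alone sharp and 1004 had shoot alone sharp, and a score above -1 gave 816 in shoot alone.

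Root-higher pairs were sharp more often than shoot-higher pairs under each of these: 62.3% of root-higher and 41.3% of shoot-higher pairs on tags, 79.8% and 41.0% with a signal of at least 5, 52.6% and 25.4% at 5 bp, 76.0% and 43.9% at 20 bp, and 76.3% and 41.7% with 100 to below 1000 tags. Without dense runs it was 69.9% of root-higher and 30.4% of shoot-higher pairs. Centring on the median, the shape score and all alternatives for the sharp share of called pairs were chosen after seeing the data. The cause of these shifts was not tested. With 1 pooled set per tissue, differences between seedlings, libraries or sequencing runs cannot be told apart from those between tissues.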
